A study of Mus musculus with 9 samples.

Results

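A set of 10 genes that mark macrophages or build complement C1q was followed across 9 mouse arrays: Laptm5, Coro1a, Fcgr3, Fcer1g, Tyrobp, C1qa, C1qb, C1qc, Cd14 and Lgals3. All probes annotated with 1 of these 10 symbols were taken, which gave 12 of the 24613 probes and 10 of the 15967 genes with a probe. Coro1a had 3 probes and each of the other 9 genes had 1. The first 8 genes are usually made by macrophages or other leukocytes in the pancreas. Cd14 and Lgals3 are also made by injured epithelium and are described apart.

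RNA was measured on Illumina bead arrays in 3 groups of 3 arrays each. The induced cells came from adult rag-/- mice, which lack mature T and B lymphocytes, whose pancreas had received an adenovirus labelled M3 1 month earlier. About 5000 GFP-positive cells per sample were sorted by flow cytometry, and 22% of the sorted cells were insulin-positive by the labels, so most were not. The islet samples were 4 to 5 hand-picked whole islets of adult pdx-gfp transgenic mice, and therefore held vessels and resident leukocytes beside the endocrine cells. The non-islet samples were about 10000 cells of pancreas left after islet removal from animals labelled pdxa-gfp. Only the induced group is labelled as sorted, and only it received virus or carried the rag-/- genotype, so that line, virus and sorting cannot be told apart in any comparison with it. The label M3 is not spelled out, an uninfected sorted group was not analysed here, and nothing says that replicates came from separate animals. The p-values therefore rest on the scatter of 3 samples a group, part of which may be technical.

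Macrophages are resident phagocytes of every tissue, and those of the islet sit along its vessels. Their Fc gamma receptors bind antibody-coated particles and signal through small adapter proteins that carry tyrosine activation motifs. C1q is the recognition molecule of the classical complement pathway and is assembled from A, B and C chains, which tissue macrophages make in quantity. Cd14 hands bacterial lipopolysaccharide to the Toll-like receptor 4 complex, and galectin-3, the product of Lgals3, binds galactose-containing sugars on cell surfaces.

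The promoter windows of 5 of the genes are shown as examples: 4 were highest in islets, and Fcer1g was highest in induced cells. Each window runs from 250 bases before to 50 bases after a transcription start listed by RefSeq for GRCm38.p6, and is written 5′ to 3′ on the strand of the gene. The starts listed for Laptm5, Fcgr3 and C1qc lie inside the annotated genes, and 1 of 2 overlapping windows is shown for Fcgr3. Capitals mark the letters GAGGAA, or TTCCTC where the same letters lie on the other strand, which are the core of the site usually bound by PU.1, the factor that directs macrophage development.
Laptm5 (chr4:130913066-130913365, plus strand): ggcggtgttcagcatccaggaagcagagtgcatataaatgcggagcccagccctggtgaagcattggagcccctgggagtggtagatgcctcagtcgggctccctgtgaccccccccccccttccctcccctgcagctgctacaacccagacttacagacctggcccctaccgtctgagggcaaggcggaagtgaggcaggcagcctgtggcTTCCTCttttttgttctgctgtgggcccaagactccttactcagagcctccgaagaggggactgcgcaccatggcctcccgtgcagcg
Fcgr3 (chr1:171059354-171059653, minus strand): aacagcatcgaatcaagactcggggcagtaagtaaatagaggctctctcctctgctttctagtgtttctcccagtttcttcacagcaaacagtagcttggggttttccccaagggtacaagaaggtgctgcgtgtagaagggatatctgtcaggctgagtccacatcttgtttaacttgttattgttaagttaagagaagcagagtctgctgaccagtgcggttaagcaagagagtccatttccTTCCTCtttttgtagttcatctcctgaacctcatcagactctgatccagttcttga
C1qb (chr4:136886151-136886450, minus strand): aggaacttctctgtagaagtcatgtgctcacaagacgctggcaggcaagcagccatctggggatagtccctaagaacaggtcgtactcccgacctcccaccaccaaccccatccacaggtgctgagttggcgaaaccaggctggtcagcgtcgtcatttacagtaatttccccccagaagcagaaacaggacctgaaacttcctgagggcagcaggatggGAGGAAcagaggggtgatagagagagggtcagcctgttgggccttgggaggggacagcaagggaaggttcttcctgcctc
C1qc (chr4:136892865-136893164, minus strand): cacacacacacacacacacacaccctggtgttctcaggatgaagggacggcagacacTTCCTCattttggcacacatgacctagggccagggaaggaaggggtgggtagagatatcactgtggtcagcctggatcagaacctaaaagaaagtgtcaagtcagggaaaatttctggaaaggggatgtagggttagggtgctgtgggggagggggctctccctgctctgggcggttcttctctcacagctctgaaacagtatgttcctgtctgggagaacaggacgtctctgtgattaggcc
Fcer1g (chr1:171234300-171234599, minus strand): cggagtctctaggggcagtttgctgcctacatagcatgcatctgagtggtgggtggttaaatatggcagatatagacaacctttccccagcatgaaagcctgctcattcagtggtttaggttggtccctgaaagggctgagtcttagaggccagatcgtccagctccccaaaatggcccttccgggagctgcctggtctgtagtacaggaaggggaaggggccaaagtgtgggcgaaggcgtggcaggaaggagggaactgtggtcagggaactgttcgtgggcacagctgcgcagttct
The letters were found in the windows of Laptm5, Fcgr3, C1qb and C1qc and not in those of Fcer1g, Coro1a and Lgals3, thus in 4 of 7 genes with a window. Coro1a, whose brightest probe was also highest in islets, has 2 windows without the letters, which are not printed. The 5 printed windows therefore do not stand for the whole set. On either strand 28.3% of all 32851 windows held them, so that a match describes the sequence only. C1qb, C1qc and C1qa are next to each other in the order of the genes on chromosome 4, and Fcgr3 and Fcer1g are both on chromosome 1.

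Values are deposited intensities in arbitrary units after background subtraction, so that a dark probe can be negative. The background limit was set at 1.645 noise SD of each array, which was 2.43 to 2.57 units on induced, 3.1 to 3.37 on islet and 7.24 to 7.93 on non-islet arrays. The non-islet arrays were the least sensitive, with 9210 to 9933 probes above background against 13476 to 13764 on the other 6 arrays. On them 42.6% to 46.3% of the signal lay in the 50 brightest probes, against 13.1% to 16.6% elsewhere. Log2 differences are those of quantile-normalized intensity plus 12 units, which understates the change of dim probes, with adjusted p-values from limma over 13928 kept probes and a threshold of 0.05. The summed level of the beta cell list was 9612 to 10180 in induced cells, 17860 to 20790 in islets and 81.5 to 99 in non-islet cells. The acinar list summed to 144500 to 155000 in non-islet cells, 40140 to 46670 in islets and 33480 to 35270 in induced cells, so the islet and induced samples held acinar transcripts too.

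**Figure D1:**
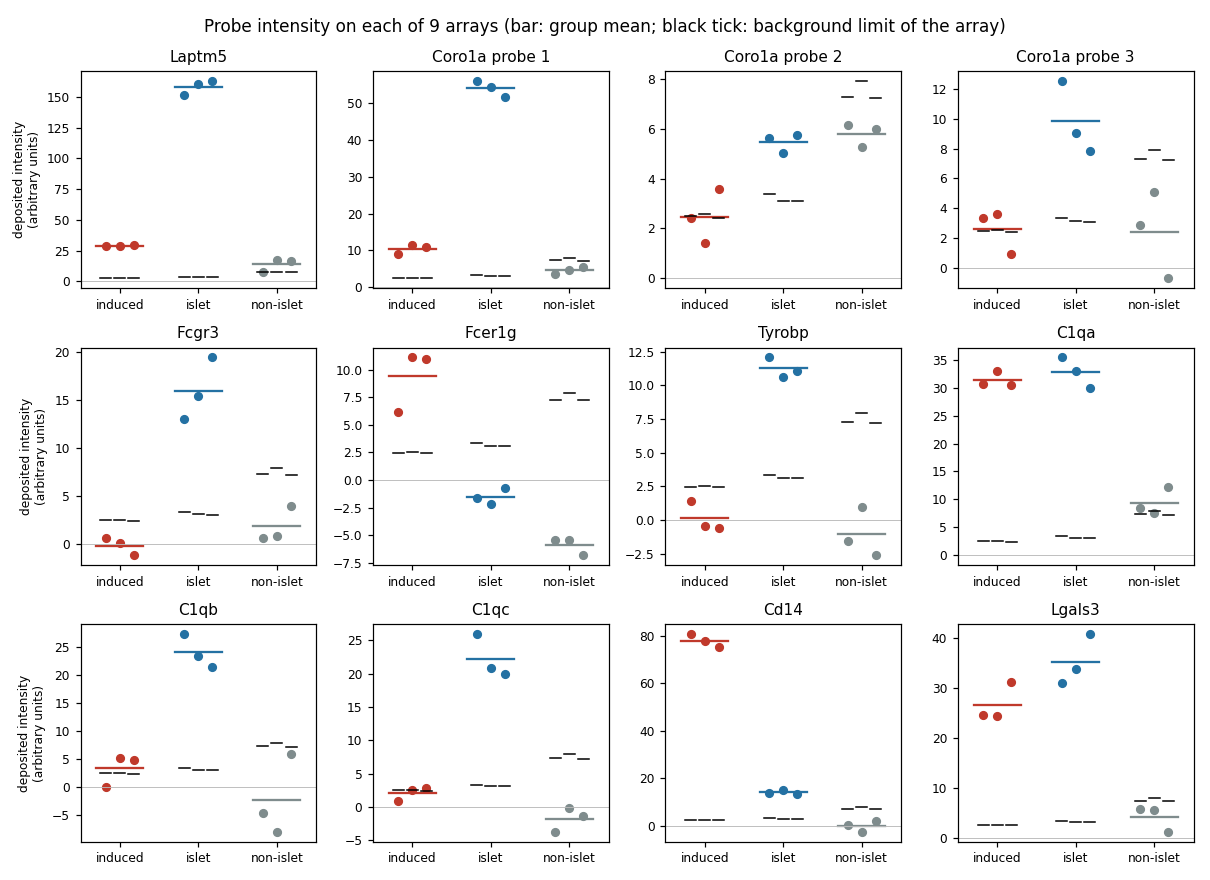
Deposited intensity in arbitrary units (vertical axes, one panel per probe) on the 3 induced (red), 3 islet (blue) and 3 non-islet arrays (grey), with a bar at each group mean and a black tick at the background limit of each array. Laptm5, Fcgr3, Tyrobp, C1qb and C1qc are highest in islets, Fcer1g and Cd14 in induced cells, and C1qa and Lgals3 have overlapping induced and islet arrays.

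Most macrophage genes were lower in induced cells than in islets, but not all. Laptm5, Coro1a, Fcgr3, Tyrobp, C1qb and C1qc were called lower, Fcer1g was called higher, and C1qa was not called. Of the 12 probes 7 were called lower, where 26.2% of all kept probes were, and 2 were called higher, where 22.5% were. Among all calls in this comparison 46.3% were higher. That share was 65.2% with arrays scaled to a common median, 39.9% in unscaled values and 61% with equal noise SD. Unscaled here means the deposited values with no further normalization, which already have the same mean on every array. The median log2 difference of the 8 macrophage genes was -1.06, against -0.035 over all 9937 genes tested. Every member probe passed the filter on low values, but Fcgr3, Tyrobp, C1qb, C1qc and Coro1a probes 2 and 3 passed through the islet arrays alone and Fcer1g through the induced arrays alone. Probes kept through the group where they are high favour a difference, so the counts are a description and carry no support of their own. In whole tissue and sorted pools, fewer cells of a type and less RNA per cell cannot be told apart.

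**Figure D2:**
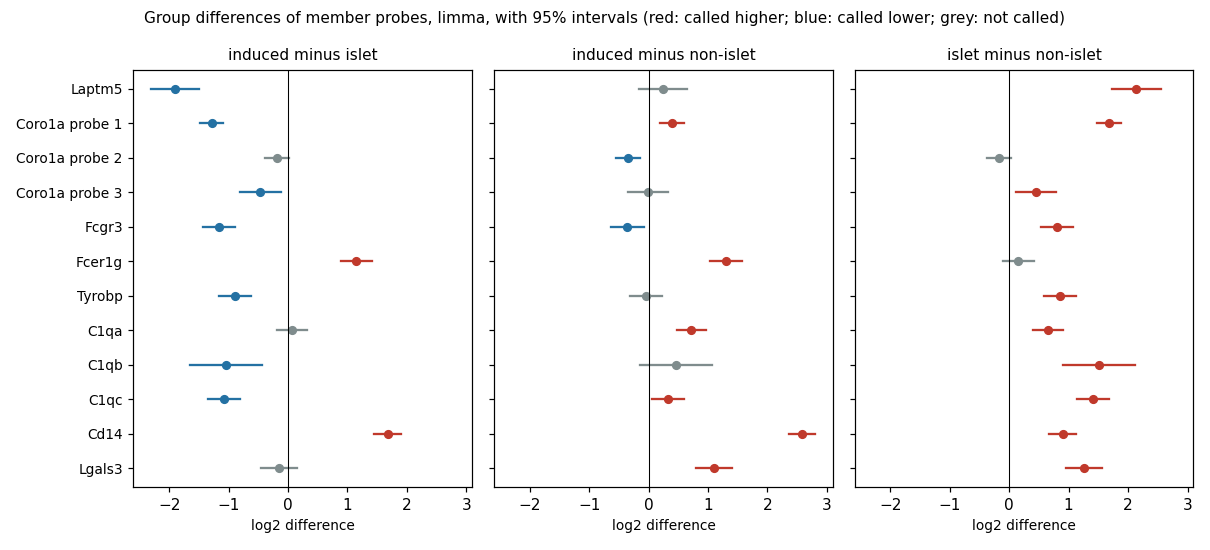
Log2 difference (horizontal axes) of each member probe in the 3 comparisons, with its 95% interval from limma, red for probes called higher, blue for lower and grey for not called. In induced cells against islets 7 intervals lie below 0 with a call and those of Fcer1g and Cd14 lie above, while islets against non-islet cells show 10 calls, each above 0.

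Laptm5, a lysosomal membrane protein of haematopoietic cells that dampens antigen receptor signalling, was measured on all arrays. Its intensity was 28.4, 28.3 and 29.7 in induced cells, 151.7, 160.3 and 163.2 in islets, and 7.82, 17.4 and 16.1 in non-islet cells. The islet arrays stood far above the other 6, and induced and non-islet arrays overlapped on the normalized scale. The log2 difference between induced cells and islets was -1.90 (SE 0.185, n = 3 against 3, limma adjusted p = 6.65e-06). That between islets and non-islet cells was 2.14 (adjusted p = 1.01e-06). Induced and non-islet cells differed by 0.24 (95% interval -0.17 to 0.646, adjusted p = 0.259), a value that turned to -0.03 without non-islet array 1 and was called at 0.43 without array 2 (adjusted p = 0.032). It was also called with a common median, unscaled values and equal noise SD, at 0.42, 0.41 and 1.32.

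Coro1a encodes coronin 1A, an actin-binding protein of leukocytes that macrophages and lymphocytes share. Its brightest probe read 9.10, 11.4 and 10.9 in induced cells, 56.1, 54.5 and 51.5 in islets, and 3.53, 4.78 and 5.40 in non-islet cells, the last below background on all 3 arrays. Islets again stood apart, with the induced cells between them and the background. The log2 difference was -1.28 for induced cells against islets (SE 0.0901, adjusted p = 4.5e-07). Against non-islet cells the induced cells were at least 1.06-fold higher (adjusted p = 0.00202), and islets were at least 2.59-fold higher (adjusted p = 2.1e-08). The bounds set the bright group against the dimmest signal that passed as above background on the non-islet arrays.

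The other Coro1a probes were dim and did not repeat all of this. The second probe read between 1.42 and 3.58 in induced cells, 5.04 and 5.73 in islets and 5.26 and 6.15 in non-islet cells. It was not called between induced cells and islets (log2 difference -0.18, adjusted p = 0.125) and was called lower in induced than in non-islet cells (-0.35, adjusted p = 0.00419), with 1 of 3 induced and no non-islet array above background. The third probe read between 0.910 and 3.64 in induced cells, 7.87 and 12.6 in islets and -0.690 and 5.08 in non-islet cells. It had the direction of the first probe between induced cells and islets (-0.46, adjusted p = 0.0273). That call was lost without induced array 3, islet array 1 or islet array 2, with adjusted p-values of 0.118, 0.108 and 0.0604, and with no filter (0.0505). Its call between islets and non-islet cells (0.45, adjusted p = 0.0205) was lost without islet array 1 (0.37, adjusted p = 0.0834) or non-islet array 3 (0.29, adjusted p = 0.0694).

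Fcgr3 encodes an activating low-affinity Fc gamma receptor of macrophages, neutrophils and natural killer cells. It read 13.1, 15.5 and 19.5 in islets, 0.632, 0.113 and -1.12 in induced cells, and 0.707, 0.886 and 4.04 in non-islet cells. Only the islet arrays were above background. Induced cells were at least 1.70-fold lower than islets (measured log2 difference -1.17, adjusted p = 1.3e-05), and islets were at least 1.19-fold higher than non-islet cells (0.81, adjusted p = 0.000104). The call between induced and non-islet cells (-0.36, adjusted p = 0.0204) compares values below background and gives no fold. It was lost without induced array 3 (adjusted p = 0.096) or non-islet array 3 (adjusted p = 0.0662) and under all 3 other scalings.

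Tyrobp encodes DAP12, an adapter with an activation motif that serves activating receptors of myeloid and natural killer cells, among them Trem2. It read 12.1, 10.6 and 11.1 in islets, 1.45, -0.466 and -0.573 in induced cells, and -1.57, 0.991 and -2.6 in non-islet cells. As for Fcgr3, only the islet arrays were above background. Tyrobp was at least 1.46-fold lower in induced cells than in islets (measured log2 difference -0.90, adjusted p = 9.64e-05). It was at least 1.02-fold higher in islets than in non-islet cells (0.86, adjusted p = 6.21e-05). Induced and non-islet cells, both below background, were not called apart (-0.04, 95% interval -0.31 to 0.23, adjusted p = 0.775).

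Fcer1g encodes the common gamma chain, the adapter through which Fcgr3 and the high-affinity IgE receptor signal, and it had the opposite order. It read 6.14, 11.1 and 11 in induced cells, -1.64, -2.18 and -0.715 in islets, and -5.47, -5.45 and -6.81 in non-islet cells. Only the induced arrays were above background. Fcer1g was at least 1.46-fold higher in induced cells than in islets (measured log2 difference 1.15, SE 0.119, adjusted p = 1.14e-05). Against non-islet cells it was at least 1.01-fold higher (1.30, adjusted p = 1.5e-06). Islets and non-islet cells were not called apart (0.15, adjusted p = 0.259), although common median scaling (adjusted p = 0.00215) and unscaled values (adjusted p = 0.00555) called islets higher.

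Fcer1g is also made by neutrophils, mast cells and platelets, so the lists of other cells were read beside it. Of 13 neutrophil genes with a probe, 6 were above background on all induced arrays, 2 on all islet arrays and 0 on all non-islet arrays. Their summed level was 522.4 to 567.9 in induced cells, 30.4 to 36.5 in islets and 13.8 to 22.8 in non-islet cells. In induced cells most of it came from Lcn2 (469.9 units), which injured epithelium makes too, while Lcn2 was below background on all islet and non-islet arrays. Of 6 tested genes 4 were higher and 0 lower in induced cells relative to islets with limma (0 lower at an unadjusted p under 0.05 too). Over all genes 24.1% were called higher and 27.2% lower. All 6 tested genes passed the filter through the induced arrays, and only 2 genes of the list were above background on all islet arrays. That favours higher calls, so the tally carries no support of its own. The 4 genes called higher were Lcn2, S100a8, S100a9 (0.81, adjusted p = 0.000913) and the granule gene Ltf (0.68, adjusted p = 8.2e-05). S100a8, a calcium-binding protein abundant in neutrophils, was higher in induced cells than in islets (28.6 ± 8.29 against 5.95 ± 2.5 units, SD, n = 3 each; log2 difference 1.14, adjusted p = 8.4e-05). The granule genes Camp, Ltf and Elane were above background on all induced arrays, whereas the granule genes Ngp, Mpo, Mmp8 and Prtn3 and the receptors Cxcr2 and Csf3r were so on none of them. Of 9 mast cell genes Cpa3, Mcpt4, Tpsab1 and the IgE receptor chains Fcer1a and Ms4a2 were above background on no array of any group. Kit (1.29, adjusted p = 2.42e-06) and Hdc (at least 1.13-fold, adjusted p = 0.000266) were higher in induced cells than in islets. The other tested mast cell genes, Cma1 (-0.006) and Tpsb2 (0.103), were not called there under any scaling. Against non-islet cells Cma1 (-0.588) and Tpsb2 (-1.51) were called lower, calls lost with equal noise SD. In that comparison Hdc was called higher (0.941) and Kit was not called (0.033), although the 3 other scalings called Kit higher. The part of these cell types in the Fcer1g difference was not tested.

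The 3 chains of C1q did not move alike between induced cells and islets. C1qa read 30.7, 33.0 and 30.5 in induced cells, 35.4, 33.0 and 30.0 in islets, and 8.48, 7.61 and 12.2 in non-islet cells. Induced and islet arrays overlapped, and both lay above the non-islet arrays. The log2 difference of C1qa between induced cells and islets was 0.07 (95% interval -0.179 to 0.316, adjusted p = 0.663). It was called higher in induced cells with common median scaling (0.16, adjusted p = 0.0359) and with equal noise SD (0.21, adjusted p = 0.0354), and its sign turned in unscaled values (-0.03). C1qa was also higher in islets (0.65, adjusted p = 0.00027) and in induced cells (0.72, adjusted p = 0.000117) than in non-islet cells.

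C1qb, the second chain, read 27.3, 23.5 and 21.5 in islets, 0.0411, 5.29 and 4.91 in induced cells, and -4.58, -8.01 and 5.92 in non-islet cells. Induced array 1 lay below the background limit and the other 2 above it, while none of the non-islet arrays passed. C1qb was lower in induced cells than in islets (log2 difference -1.05, SE 0.274, adjusted p = 0.00815), and at least 1.49-fold higher in islets than in non-islet cells (1.51, adjusted p = 0.000396). Induced and non-islet cells were not called apart (0.47, 95% interval -0.138 to 1.07, adjusted p = 0.142). That comparison turned on non-islet array 3, without which the difference was 0.83 (adjusted p = 0.00163), and it was called with equal noise SD (0.46, adjusted p = 0.00637).

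C1qc, the third chain, read 25.9, 20.9 and 19.9 in islets, 0.959, 2.53 and 2.84 in induced cells, and -3.74, -0.221 and -1.32 in non-islet cells. The islet arrays stood clear of all others, and 1 of 3 induced arrays passed the background limit. C1qc was lower in induced cells than in islets (log2 difference -1.08, SE 0.121, adjusted p = 2.08e-05), and at least 1.42-fold higher in islets than in non-islet cells (1.40, adjusted p = 9.64e-07). Its difference between induced and non-islet cells was 0.33 (adjusted p = 0.0287). That call was lost when induced array 2, induced array 3 or non-islet array 1 was left out, with adjusted p-values of 0.0876, 0.0982 and 0.0956, and with an offset of 50 (0.136), no filter (0.0513) or array weights (0.0975).

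Each chain was read by a single probe, so that a difference between chains and a difference between probes cannot be told apart.

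Cd14, the lipopolysaccharide co-receptor, was highest in induced cells and next in islets. It read 80.6, 77.9 and 75.3 there, 14.0, 15.1 and 13.4 in islets, and 0.494, -2.47 and 1.96 in non-islet cells. The 3 groups did not overlap, and the non-islet arrays were all below background. Cd14 was higher in induced cells than in islets by 1.68 on the log2 scale (SE 0.102, adjusted p = 1.4e-07). Induced cells were at least 3.60-fold above non-islet cells (2.58, adjusted p = 1.63e-09), and islets at least 1.13-fold (0.90, adjusted p = 9.52e-06).

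Lgals3 read 24.4, 24.3 and 31.1 in induced cells, 30.9, 33.7 and 40.7 in islets, and 5.81, 5.43 and 1.14 in non-islet cells. Induced and islet arrays overlapped, and non-islet cells were below background throughout. The log2 difference between induced cells and islets was -0.15 (95% interval -0.453 to 0.155, adjusted p = 0.417), and it was called only in unscaled values (-0.19, adjusted p = 0.0453). Against non-islet cells Lgals3 was at least 1.70-fold higher in induced cells (1.10, adjusted p = 2e-05) and at least 1.89-fold higher in islets (1.25, adjusted p = 7.57e-06). The induced minus islet difference of Cd14 exceeded that of Lgals3 by 1.83. This contrast was 1 of 4 chosen after the values were seen, and its two-sided exact permutation p of 0.1 over 20 regroupings is the smallest that 3 against 3 arrays allow.

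The comparisons with non-islet cells share arrays with each other and with the first one, so their values are given side by side only. In induced against non-islet cells 6 of 12 probes were called higher, where 39.6% of kept probes were, and 2 lower, where 36.6% were. In islets against non-islet cells 10 of 12 were called higher, where 40.5% were, and 0 lower, where 34.1% were. With limma, 0 member probes were lower in this last comparison at an unadjusted p under 0.05 as well, and the probes left without a call, Coro1a probe 2 and Fcer1g, had log2 differences of -0.17 and 0.15 with adjusted p-values of 0.111 and 0.259. The medians of the 8 macrophage genes were 0.36 and 1.13, against 0.066 and 0.099 over all genes.

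Both comparisons depended on how arrays were scaled. Of all calls between induced and non-islet cells 52% were higher, a share that became 71.1% with a common median, 71.6% in unscaled values and 95.1% with equal noise SD. Between islets and non-islet cells the 54.3% became 68.8%, 77.1% and 94.4%. These scalings moved the median of all probes from 0.05 to 0.28, 0.27 and 1.03 in the first comparison and from 0.09 to 0.21, 0.35 and 0.93 in the second. Relative to that median Laptm5, Fcer1g, C1qa, Cd14 and Lgals3 were above 0 in induced against non-islet cells under all 3 scalings, with Cd14 at 1.54, 1.48 and 1.90. Below 0 under all 3 were the 3 Coro1a probes, Fcgr3, Tyrobp and C1qc, with Coro1a probe 1 at -0.06, -0.06 and -0.29 and C1qc at -0.09, -0.10 and -0.71. C1qb was at 0.03, -0.003 and -0.57. In islets against non-islet cells Laptm5, Coro1a probe 1, Fcgr3, the 3 C1q chains, Cd14 and Lgals3 were above 0 under all 3. Coro1a probe 3, one of the 10 called higher, was below 0 under all 3 (-0.01, -0.07 and -0.30), as was Coro1a probe 2. Tyrobp fell below 0 with equal noise SD (-0.08), and Fcer1g in unscaled values (-0.13) and with equal noise SD (-0.82).

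Other macrophage genes were then counted on a list that does not hold the members. Csf1r and Cd68 were not measured under these symbols here. Of 39 list genes with a probe 16 were tested, and limma called 10 lower and 2 higher in induced cells when set against islets, with a median of -0.64. Over all genes, each by its brightest probe, 27.2% were called lower and 24.1% higher. Adgre1, a surface receptor that defines mouse macrophages, averaged 3.79 ± 0.609 units in induced samples and 27.5 ± 2.79 in islets (SD, n = 3 each), a log2 difference of -1.07 (adjusted p = 4.7e-05). The fractalkine receptor Cx3cr1 was at least 1.69-fold lower (adjusted p = 1.17e-05), and Fcgr4, another Fc receptor that signals through the common gamma chain, at least 1.62-fold lower (adjusted p = 0.00091). Cx3cr1 and Fcgr4 passed the filter through the islet arrays alone, which favours a lower call. Alox5ap, which activates leukotriene synthesis (-1.11, adjusted p = 0.00119), and the lysosomal protease gene Ctss (-0.89, adjusted p = 0.000623) fell as well. Lyz2, the lysozyme of myeloid cells, was lower too, at 32.4 ± 5.72 against 68.2 ± 13.8 units (-0.69, adjusted p = 0.00312). One of the 2 higher genes was the mannose receptor gene Mrc1 (0.53, adjusted p = 0.00291), which was named after its value was seen. The defining genes Cd163, Itgam, Itgax, Fcgr1, Msr1, Marco, Trem2 and Siglec1 were above background on no array of any group.

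The leukocyte signalling list gave fewer calls. Set against islets, induced cells had 4 of 9 tested genes lower and 0 higher with limma (0 higher at an unadjusted p under 0.05 too). The median was -0.27. Over all genes 27.2% were called lower and 24.1% higher. The lower list genes were the phosphatase gene Inpp5d (at least 1.52-fold, adjusted p = 0.000139) and the GTPase gene Rac2 (at least 1.25-fold, adjusted p = 0.00584). The others were Was (at least 1.13-fold, adjusted p = 0.0159) and Lat2 (at least 1.12-fold, adjusted p = 0.0415). All 4 passed the filter through the islet arrays alone, which favours lower calls, so the tally carries no support of its own. With a common median the calls of Was and Lat2 were lost (adjusted p = 0.0833 and 0.137), which left 2 lower and 1 higher. In unscaled values 6 were lower and 0 higher, and with equal noise SD 5 were lower and 2 higher. A gene called higher with a common median and with equal noise SD was the phosphatase gene Ptpn6 (0.39 and 0.45), named after its values were seen. Ptprc, the pan-leukocyte CD45 antigen, and Itgb2, the beta chain of leukocyte integrins, were above background on none of the 9 arrays. The kinase gene Syk, which acts below both adapters, was also above background on none.

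Set against non-islet cells, induced cells had 3 of 16 macrophage genes higher and 7 lower, where 40.7% and 36.8% of all genes were. Islets had 9 higher and 4 lower, where 41.4% and 34.8% were. The medians were -0.26 and 0.44. The first tally turned with the scaling, to 4 higher and 5 lower with a common median or in unscaled values and to 8 higher and 2 lower with equal noise SD (median 0.24). Islets then had 10 higher and 3 lower, 11 and 3, and 12 and 1. The largest fall in both was of the lysosomal protease gene Ctsc, at -2.56 (adjusted p = 4.89e-10) and -2.48 (adjusted p = 6.2e-10), which shrank to -0.24 and -0.38 with equal noise SD. Apoe rose in both, by 0.84 (adjusted p = 0.00118) and 1.72 (adjusted p = 4.41e-06). Lyz2 was called lower in induced than in non-islet cells (-0.66, adjusted p = 0.00217) although its deposited intensity was 26.9 ± 2.35 in the latter, and its sign turned under all 3 other scalings. The sign of Grn, which encodes progranulin, turned likewise (-0.32, and 0.59, 0.60 and 2.07 under the other scalings). The summed level of the list was 450.5 to 471.2 in induced cells, 590.7 to 649.2 in islets and 459.4 to 522.3 in non-islet cells. Of the 39 list genes with a probe, 24 were above background on no induced array, 21 on no islet array and 29 on no non-islet array. The sums thus rest on the remaining genes, Ctsc among them, and do not measure how many macrophages a sample held.

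Markers of other cells also differed between the groups. Over all genes 27.2% were called lower in induced cells than in islets and 36.8% lower than in non-islet cells. All 10 tested endothelial genes were lower in induced cells than in islets, and 7 of 10 were lower than in non-islet cells. The tally against non-islet cells became 7 lower and 1 higher with a common median or in unscaled values, and 4 lower and 1 higher with equal noise SD. The summed endothelial level was 46.2 to 54.4 in induced cells, 2645 to 2779 in islets and 190 to 230.4 in non-islet cells. Of 8 tested stellate cell and fibroblast genes 7 were lower in induced cells than in islets. Of 6 tested dendritic cell and class II genes 4 were lower, and their summed level was 207.4 to 216.8 in induced cells, 925.6 to 963.5 in islets and 71.3 to 77.8 in non-islet cells. Of the 10 T and B lymphocyte genes with a probe, Cd3e, Cd3g, Cd4, Cd5 and Pax5 were above background on no array of any group. Above background on all arrays of a group were 1 in induced cells, 4 in islets and 1 in non-islet cells. The list summed to 2.583 to 10.04 in induced cells, 22.44 to 28.98 in islets and 22.86 to 35.36 in non-islet cells. Of 4 tested genes 1, Cd79a (-0.84), was called lower in induced cells than in islets, and 3 were not called. Cd79a was also called lower under the 3 other scalings. The part of cell composition in the member differences was not tested.

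**Figure D3:**
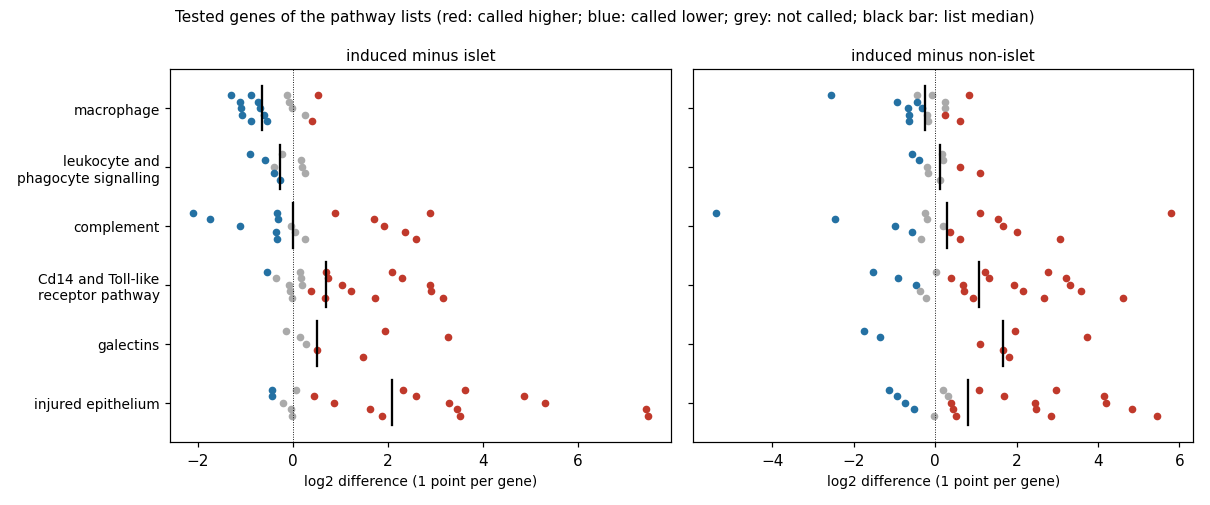
Log2 difference (horizontal axes) of each tested gene of 6 pathway lists, for induced cells against islets and against non-islet cells, red where called higher, blue where called lower and grey where not called, with a black bar at the list median. In the first comparison the macrophage list lies mostly below 0 (median -0.64) and the Cd14 and Toll-like receptor list mostly above it (median 0.70).

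The complement genes beyond C1q did not follow a single direction. Of 16 tested, induced cells had 6 higher and 7 lower relative to islets, where 24.1% and 27.2% of all genes were. The median was 0.005. The tally became 7 higher and 3 lower with a common median, 6 and 7 in unscaled values and 7 and 5 with equal noise SD. C1ra, a protease that C1q activates, was above background on no array, and its partner C1s1 was called lower in induced cells at 2.57 ± 1.32 against 7.51 ± 1.17 units (-0.33, adjusted p = 0.0362), a call lost with a common median (adjusted p = 0.0799). Serping1, the C1 inhibitor, was higher at 1068 ± 90.4 against 140.3 ± 11.4 units (SD, n = 3 each; 2.88, adjusted p = 2.25e-09), and at least 43.9-fold higher than in non-islet cells (adjusted p = 1.03e-11). Clu, which restrains the terminal complex (2.59, adjusted p = 3.22e-09), and Cd55, which takes apart convertases (1.91, adjusted p = 4.53e-07), were higher as well. Not every regulator rose. Cd59a (-1.747) and Vtn (-1.105) were called lower in induced cells than in islets, also under the 3 other scalings. In the lectin pathway Fcna, which encodes a ficolin, was at least 4.24-fold higher in induced cells (adjusted p = 7.2e-06), and the protease gene Masp2 at least 3.07-fold lower (adjusted p = 1.65e-08). C3, the point where the pathways meet, was not measured under this symbol here.

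Against non-islet cells induced cells had 8 of 16 complement genes higher and 4 lower, where 40.7% and 36.8% of all genes were. Islets had 6 and 6, where 41.4% and 34.8% of all genes were. With equal noise SD these tallies became 10 and 2 for induced cells and 12 and 3 for islets. Vtn, which encodes vitronectin, read 2216 ± 80.6 in non-islet cells, 121.5 ± 8.15 in islets and 46.5 ± 1.93 in induced cells. Its log2 differences against non-islet cells were -5.39 in induced cells (adjusted p = 1.03e-11) and -4.28 in islets (adjusted p = 1.8e-11). Properdin, encoded by Cfp, was at least 2.77-fold higher in islets than in non-islet cells (adjusted p = 1.23e-08).

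More genes of the pathway in which Cd14 acts were higher than lower in induced cells. Relative to islets 12 of 20 tested genes of this list were higher and 1 lower, where 24.1% and 27.2% of all genes were. The median was 0.70. The lower gene was Il1b (-0.54), and Tlr4, Tlr2, Tlr6, Ticam1, Tirap, Irak1 and Traf6 were not called. Of these Tlr2 alone was called under the 3 other scalings, as higher. Relative to non-islet cells 14 were higher and 3 lower, where 40.7% and 36.8% of all genes were, with a median of 1.08. Ly96, the co-receptor MD-2, read 157.6 ± 8.73 in induced cells, 59.9 ± 6.76 in islets and 2.56 ± 0.219 in non-islet cells (SD, n = 3 each). It was higher in induced cells than in islets by 1.23 (adjusted p = 1.5e-06) and at least 6.55-fold higher than in non-islet cells (adjusted p = 2.41e-10). Tlr4 itself was not called between induced cells and islets (-0.02, adjusted p = 0.898), at 7.96 ± 2.89 and 9.94 ± 0.886 units. It was called lower than in non-islet cells, at 16.2 ± 2.47 units, in both (-0.92 and -0.89, adjusted p-values 1.91e-05 and 2.52e-05), and both signs turned with equal noise SD.

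Targets and feedback inhibitors of the pathway made up its 5 largest differences between induced cells and islets. The neutrophil-attracting chemokine gene Cxcl1 read 535.7 ± 28.6 in induced cells, 50.5 ± 3.03 in islets and 5.90 ± 1.14 in non-islet cells. Its log2 difference was 3.15 against islets (adjusted p = 6.91e-10), and it was at least 21.8-fold above non-islet cells (adjusted p = 2.19e-11). Nfkbia and Tnfaip3, which restrain NF-kappaB, were higher than in islets by 2.91 (adjusted p = 2.53e-07) and 2.89 (adjusted p = 1.39e-08), Nfkbiz by 2.30 (adjusted p = 1.69e-08), and Cxcl2 at least 3.19-fold (adjusted p = 5.64e-06). In islets against non-islet cells 8 of 20 genes were higher and 4 lower, where 41.4% and 34.8% of all genes were. Among the 8 were Il1b (at least 2.37-fold, adjusted p = 9.08e-08) and Tlr2 (1.76, adjusted p = 7.47e-08).

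**Figure D4:**
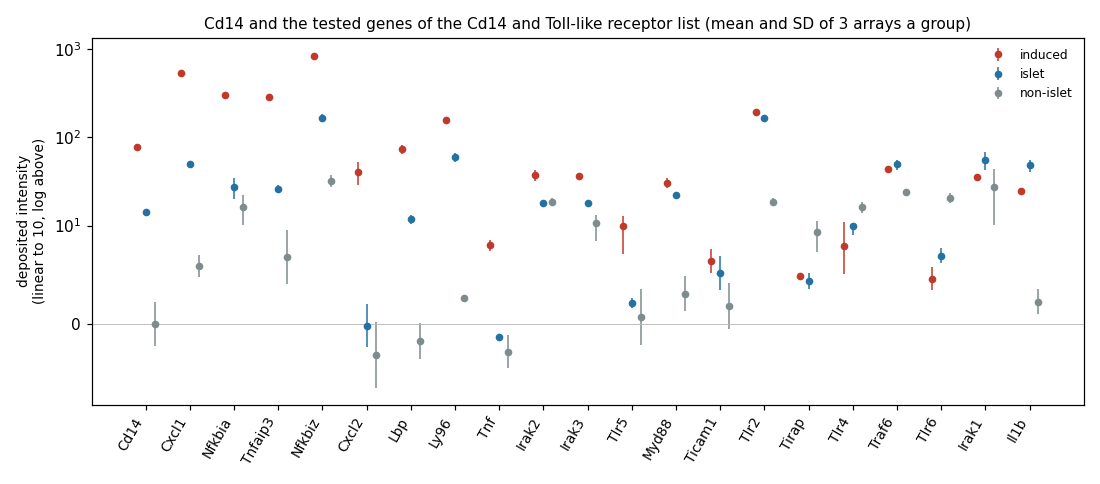
Deposited intensity in arbitrary units (vertical axis, linear to 10 and logarithmic above) of Cd14 and of the 20 tested genes of the Cd14 and Toll-like receptor list, as the mean and SD of 3 arrays in induced (red), islet (blue) and non-islet cells (grey). Cxcl1, Nfkbia, Tnfaip3 and Ly96 are highest in induced cells, as is Cd14, while Tlr4 averages 7.96 units in induced cells, 9.94 in islets and 16.2 in non-islet cells.

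Genes of injured epithelium were read beside Cd14 and Lgals3. Induced cells had 14 of 20 tested genes higher and 2 lower relative to islets, where 24.1% and 27.2% of all genes were. The median was 2.10. Relative to non-islet cells 13 were higher and 4 lower, where 40.7% and 36.8% of all genes were. The summed level of the list was 29600 to 30580 in induced cells, 27600 to 28710 in non-islet cells and 8828 to 9806 in islets. The regenerating-protein genes Reg3b and Reg3a read 4259 ± 165.4 and 4189 ± 117.8 in induced cells against 25.4 ± 1.42 and 22.9 ± 1.70 in islets (log2 differences 7.47 and 7.43, adjusted p-values 3.45e-11 and 1.78e-12). Against non-islet cells Reg3b and Reg3a were higher in induced cells by 2.84 and 2.978. In islets both were lower than in non-islet cells, by log2 differences of -4.634 and -4.455. Lcn2, an iron-sequestering protein of injured epithelium and neutrophils, was at least 27.5-fold higher than in islets (adjusted p = 8.84e-11) and at least 19-fold higher than in non-islet cells (adjusted p = 2.92e-11). The keratin gene Krt8 read 3365 ± 112.6 in induced cells, 433.3 ± 29.0 in islets and 478.4 ± 24.0 in non-islet cells. The duct keratin gene Krt19 was dim, at 12.8 ± 2.70 units in induced samples and 1.91 ± 1.65 in islets (0.87, adjusted p = 0.00109). It was not called against non-islet cells (0.32, adjusted p = 0.1), but was called higher under all 3 other scalings (0.23, 0.22 and 0.82). The part of epithelial expression in the Cd14 and Lgals3 values was not tested.

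The galectin list, which holds Lgals3, was read first for induced cells set against islets. Of its 7 tested genes 4 were higher and 0 lower with limma (0 lower at an unadjusted p under 0.05 too), with a median of 0.50. Over all genes 24.1% were called higher and 27.2% lower. Lgals9 rose by 3.26 (adjusted p = 3.76e-10), Lgals1 by 1.93 (adjusted p = 8.62e-07) and Lgals4 by 0.50 (adjusted p = 0.0173), and Lgals3bp, which encodes a secreted galectin ligand, by 1.48 (adjusted p = 8.87e-07). Against non-islet cells, where 40.7% of all genes were higher and 36.8% lower, induced cells had 5 of the 7 galectin genes higher and 2 lower. Among these Lgals3bp was higher by 3.72 (adjusted p = 2.02e-10) and Lgals1 lower by a log2 difference of -1.75 (adjusted p = 7.29e-07), whose sign turned with equal noise SD. Whether Lgals3 differs from the rest of its list was not tested.

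Over the 9 arrays the genes most like each pattern were ranked by Pearson correlation of log2 values, as a description over 3 groups that share arrays. The mean of the C1q chains was most like Chst12 (r = 0.99), Marchf6, Foxk2, Marchf9 and Alkbh2 (each 0.98). Lgals3 was most like Lrrc57, N4bp1, Taf5l, Ppm1l and Tubb2b (each 0.99). Cd14 was most like Limk2 and Hbegf, followed by Tubb6, Dusp4 and Rhob (each 0.998). Among the members, Fcer1g had r = 0.94 with Cd14 and 0.02 with the C1q mean, whereas Coro1a had 0.05 and 0.94. C1qa stood between them, with 0.80 for Cd14 and 0.78 for the C1q mean of which it is part.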

How the data were processed

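The 9 samples were hybridized to Illumina mouse bead arrays after Trizol extraction, amplification with an Ambion TotalPrep kit and biotin labelling, per the labels' protocols. The authors deposited intensity values made with BeadStudio, per the submitters' processing notes, which give no version or settings. Judged by the values, they are linear and background-subtracted, and every array has the same mean of 74.17. A second deposited table names its 36 value columns by slide position, and the labels do not say which sample lay where; its detection p-values were not used here, nor could slides be entered as a batch.

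Intensities were quantile-normalized, increased by 12 units so that no value lay under 1, and log2-transformed. The noise SD of an array came from its values below 0 mirrored at 0, and 1.645 noise SD (the 95% point) was the background limit. A probe had to pass it on each of the 3 arrays of some group, which left 13928 probes and every one of the 12 member probes. Of the probes 20984 carried 1 gene symbol, 1 several and 3628 none. A gene number matched 20968 to the RefSeq table (GRCm38.p6), with 0 symbols changed. The brightest kept probe stood for a gene, of which 9937 were tested, 1826 of them with several kept probes. Groups were compared with limma 3.58.1 in R 4.3.3 (lmFit and eBayes, 9 arrays, 6 residual degrees of freedom), and every adjusted p is from limma's moderated two-sided test, adjusted after Benjamini and Hochberg over the 13928 probes (threshold 0.05), except those called exact. Where a probe passed on every array of one group and on none of the other, the fold is a lower bound (at least N-fold) against the dimmest signal above background; the precision is limited by the number of arrays.

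The members and gene lists were chosen with earlier results of these data known, so no list is independent evidence. List genes that passed the filter through a single group favour a difference as well, so the list counts are descriptions. Named were all members, up to 5 called genes of each of 6 pathway lists and comparison by size of change, 14 genes whatever their values, and the 5 most correlated genes of 3 patterns; any other is named as an example or a cell type marker. Of 17 lists, the beta cell, acinar, neutrophil, mast cell, lymphocyte, endothelial, stellate and class II lists are given where they bear on a member, while the NK cell, duct cell and erythrocyte lists gave 0, 6 and 0 higher and 1, 0 and 3 lower genes in induced cells against islets. Same-numbered arrays of different groups did not deviate together (correlations -0.116 to 0.19), so the numbers were not used as pairs. Alternatives were 2 other offsets (16 and 50), 3 other scalings, no filter, a stricter filter, a trended variance, array weights, the 2 compared groups alone, any kept probe of a gene, a replicate block and leaving out each array. The procedure was tested on simulated data. Figures were drawn with matplotlib 3.10.9 in Python 3.11.15.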

Additional observations from a re-analysis of the deposited data

How the results depend on the processing

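Of 717 values of member probes under 21 alternative settings, 668 kept their direction and side of the threshold, 19 lost a call, 12 gained one and 18 changed sign, and the cause of these changes was not tested. The count of member probes called lower in induced than in non-islet cells, 2, was 1 with an offset of 50, a common median, no further normalization, the stricter filter or array weights, 0 with equal noise SD, and 1 to 2 when arrays were left out in turn. All other counts of member calls stayed within 1.5 times, also with a replicate block, under which all probes called numbered 6612 (6783 without the block), 10580 (10609) and 10345 (10401) in the 3 comparisons. The block changed no member call. Sign changes between induced cells and islets concerned C1qa (-0.0304 with no further normalization). Between induced and non-islet cells they concerned Laptm5 (-0.0301 without non-islet array 1, with a range of -0.0301 to 0.4295 over the arrays left out), Coro1a probe 2 (0.0534 with equal noise SD), Coro1a probe 3 (0.0054, 0.0115, 0.1951 and 0.0198 with a common median, no further normalization, equal noise SD and array weights, and -0.1737 to 0.1188 over the arrays left out) and Tyrobp (0.0553, 0.0536, 0.0603 and 0.0197 under the same 4 settings, and -0.149 to 0.0623 over the arrays left out). In islets against non-islet cells Coro1a probe 2 turned to 0.2263 with equal noise SD. The calls of Laptm5, Coro1a probe 1, Fcgr3, Fcer1g, Tyrobp, C1qb, C1qc and Cd14 between induced cells and islets held under all 20 settings run for each probe, with log2 differences of 0.32 to 1.25 for Fcer1g and 0.88 to 1.97 for Cd14. Differences shrink with a larger offset by construction. Signal over background limits Fcgr3, Fcer1g, Tyrobp, C1qb and C1qc, which passed the limit in all arrays of 1 group alone.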
